A study of Mus musculus with 17 samples.

Results

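The genes of versican, hyaluronan and the ADAMTS proteases were followed in the infarcted mouse heart. Members were taken by symbol and comprised 10 of the 31647 features of the count table: Vcan, Cd44, Has1, Has2, Tnfaip6, Adamts1, Adamts2, Adamts4, Adamts5 and Adamts9. RNA of 17 hearts had been sequenced from the 3' end, with molecular identifiers on the reads. The 8 control hearts were sham operated and gave left ventricular (LV) tissue, whereas the other 9 had a permanently ligated left anterior descending coronary artery (LAD) and gave tissue of the infarct zone (IZ). All were male wild-type C57BL/6J mice, 8 to 11 weeks old at surgery, and their organs were taken 5 days later. The ligation was not reperfused, no later time point was analysed here, and the infarct zone is bulk tissue whose boundary was set by dissection.

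Versican is a large proteoglycan of loose provisional matrix, carrying chondroitin sulfate chains on a core protein whose amino-terminal end binds hyaluronan. Hyaluronan itself is a sugar polymer that the synthases HAS1, HAS2 and HAS3 extrude through the cell membrane. CD44 is its main receptor on cells, and the secreted protein TSG-6, encoded by Tnfaip6, couples it to the heavy chains of inter-alpha-inhibitor. ADAMTS1, ADAMTS4, ADAMTS5 and ADAMTS9 are secreted metalloproteases that can cut the versican core protein, while ADAMTS2 trims the amino-terminal propeptide from fibrillar procollagens. In the heart, versican and hyaluronan are best known from the endocardial cushions of the embryo and from the matrix of injured myocardium.

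The libraries held 1237675 to 4738307 counts. Levels are given as CPM, the count scaled to a common library size with TMM factors (trimmed mean of M values). Of 12301 genes that passed a filter on low counts, 69.5% differed between IZ and sham in the quasi-likelihood test of edgeR at an adjusted p under 0.05, 36.3% being higher and 33.1% lower. IZ replicate 1 stood apart. Mitochondrially encoded transcripts took 19.5% of its counts, against 4.22 to 6.78% in the other IZ libraries and 22.9 to 32.4% in sham. The summed level of 5 cardiomyocyte markers was 12125 CPM in it, 1096 to 2643 CPM in the other IZ libraries and 27457 to 38666 CPM in sham. Results that rest on it are given with and without it.

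As a check of the labelled tissue, all 5 cardiomyocyte markers were counted in every library, and all 5 were lower in IZ. Markers of other cells moved as well. All 5 macrophage markers were higher in IZ, with a summed level of 114 to 155 CPM in sham and 575 to 1192 CPM in IZ. Of the 5 fibroblast markers 4 were higher, Dcn being the exception, and the sum was 990 to 1763 CPM in sham and 5028 to 8554 CPM in IZ. Endothelial markers summed to 342 to 679 CPM in sham and 253 to 456 CPM in IZ, with 1 of 5 lower, and 2 of 5 without IZ replicate 1. Mural cell markers summed to 327 to 575 CPM and 143 to 371 CPM, with 3 of 5 lower. Neutrophil markers summed to 4.44 to 12.3 CPM and 14.9 to 210 CPM, with 3 of 3 tested genes higher. Of these, Csf3r had 0 to 3 counts per sham library and could only enter the test by being high in IZ. Retnlg and Cxcr2 did not pass the filter. Lymphocyte markers, of which 0 of 5 were tested, summed to 8.91 CPM or less in every library. The part of these shifts in the results below was not tested, and in bulk tissue fewer cells of a type and less RNA per cell cannot be told apart.

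Of the 10 genes, 8 passed the filter. Among these, 6 were higher in IZ (Vcan, Cd44, Tnfaip6, Adamts2, Adamts4 and Adamts9), against the 36.3% of all tested genes, and 0 were lower, against 33.1%. Adamts1 and Adamts5 did not pass the test. Without IZ replicate 1, 5 were higher, since Adamts4 no longer passed the filter. The median log2 fold change of the 8 was 2.41, beside 0.05 over all tested genes. Tnfaip6 and Adamts4 reached the minimum of the filter in 0 sham libraries and passed it through the IZ libraries, so that they could only enter the test by being high there. In 3 genes (Vcan, Cd44 and Adamts2) every IZ library lay above every sham library, which held for 16.6% of tested genes. With library totals in place of TMM the median of all tested genes moved to 1.14. Relative to that median the log2 fold changes of the 8 genes were -0.05 (Adamts5), 0.28 (Adamts1), 0.57 (Adamts9), 2.33 (Tnfaip6), 2.40 (Vcan), 2.80 (Adamts2), 2.95 (Cd44) and 3.72 (Adamts4), the last from a gene at the detection floor in sham.

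**Figure D1:**
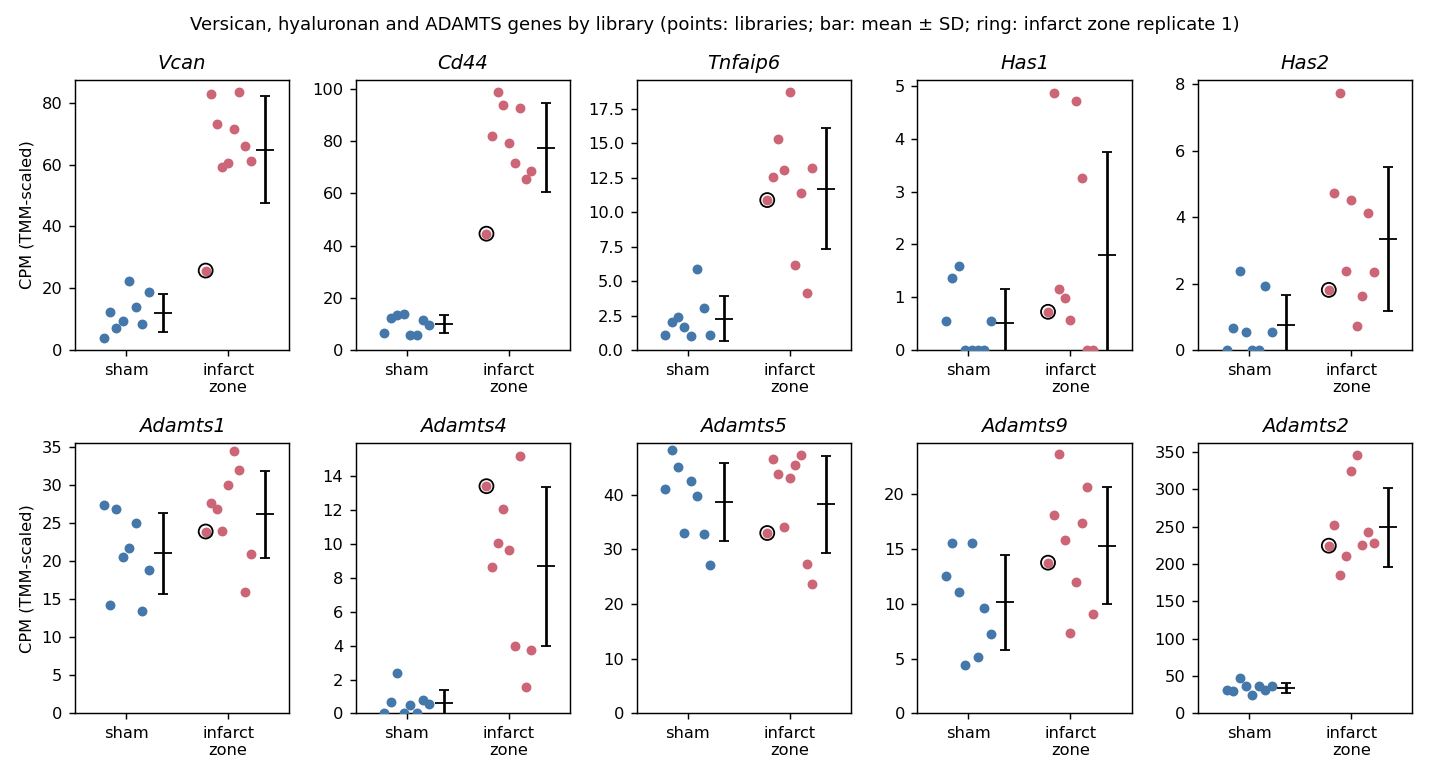
Levels of the 10 genes in CPM on the vertical axes, in the sham and IZ libraries on the horizontal axes. Points are libraries, the cross bar with whiskers is the mean ± SD (8 sham and 9 IZ libraries, whiskers cut at 0), a ring marks IZ replicate 1, and each panel has its own scale. Vcan, Cd44 and Adamts2 separated the groups completely, whereas Adamts5 overlapped throughout.

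Vcan (ENSMUSG00000021614), the versican core protein, lies on the minus strand of chromosome 13 at chr13:89655312-89742509 (GRCm38). Its level ran from 3.83 CPM over a median of 10.8 to 22.3 CPM in sham, and from 25.7 over 66.1 to 83.5 CPM in IZ. Every IZ library was above every sham library, and the lowest of them was IZ replicate 1, with the other 8 at 59.2 CPM or more. The means were 12.0 ± 6.16 CPM (SD, n = 8) and 64.9 ± 17.3 CPM (SD, n = 9), or 69.8 ± 9.71 CPM without IZ replicate 1. The log2 fold change was 2.43 ± 0.25 (SE, 95% interval 1.88 to 2.97; edgeR quasi-likelihood test, Benjamini-Hochberg adjusted p = 1.45e-08), and 2.50 without that replicate. Among the 12301 tested genes, 745 had a larger log2 fold change. Reads of the 3' end do not distinguish the splice forms of versican, which differ in the number of chondroitin sulfate attachment regions, and the same holds for the forms of CD44.

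Cd44 (ENSMUSG00000005087, chr2:102811141-102901665, minus strand) encodes the hyaluronan receptor. Its level was 5.69 to 13.9 CPM in sham (median 10.5) and 44.6 to 98.9 CPM in IZ (median 79.3). Again no IZ library fell into the sham range, and IZ replicate 1 was the lowest. The means of 9.84 ± 3.43 CPM (SD, n = 8) and 77.5 ± 17.04 CPM (SD, n = 9) gave a log2 fold change of 2.98 ± 0.19 (SE, 95% interval 2.57 to 3.39; edgeR quasi-likelihood test, adjusted p = 8.41e-12). Without IZ replicate 1, the IZ mean was 81.6 ± 12.6 CPM and the log2 fold change 3.02. Cd44 is expressed by leukocytes as well as by fibroblasts. The marker sums of macrophages and fibroblasts given above were also higher in IZ, that of fibroblasts mostly through Col1a1. The part of these cells in the level of Cd44 was not tested.

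Tnfaip6 (ENSMUSG00000053475, chr2:52038009-52056686, plus strand) encodes TSG-6, the hyaluronan-binding protein that is induced in inflammation. It was counted 2 to 8 times per sham library and 8 to 93 times per IZ library. Sham levels ran from 1.04 to 5.88 CPM (median 1.85), IZ levels from 4.13 to 18.7 CPM (median 12.5). In 8 of 9 IZ libraries Tnfaip6 was above every sham library, the exception being IZ replicate 8, which lay below sham replicate 6. The log2 fold change was 2.39 ± 0.33 (SE, 95% interval 1.68 to 3.10; edgeR quasi-likelihood test, adjusted p = 1.12e-06), with means of 2.29 ± 1.62 CPM (SD, n = 8) and 11.7 ± 4.41 CPM (SD, n = 9).

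The genes of the hyaluronan synthases were close to the detection floor, which 3 counts put at a mean of 1.79 CPM in sham and 1.06 CPM in IZ. Neither passed the filter. Has2 (ENSMUSG00000022367, chr15:56665627-56694539, minus strand), the synthase required for cardiac cushions, had 0 to 5 counts per sham library and 2 to 47 per IZ library. The sham mean was 0.762 ± 0.910 CPM (SD, n = 8) and the IZ mean 3.34 ± 2.16 CPM (SD, n = 9), ranging from 0 to 2.38 CPM (median 0.557) and from 0.726 to 7.75 CPM (median 2.38). The ranges overlapped, and 5 of 9 IZ libraries lay above every sham library. In an exact two-sided permutation test added after the counts were seen, the difference in mean log2 CPM of 1.90 gave p = 0.00226. The antisense gene Has2os had 0 to 1 counts per sham library and 0 to 10 per IZ library. As the strand setting of the counting is not given, reads of such a pair cannot be told apart. Without any filter, the log2 fold change of Has2 was 2.17 ± 0.56 (SE, edgeR quasi-likelihood test, adjusted p = 0.00158).

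Has1 (ENSMUSG00000003665, chr17:17843323-17855205, minus strand) had 0 to 2 counts per sham library and 0 to 35 per IZ library. Levels were 0 to 1.58 CPM in sham (median 0.274) and 0 to 4.87 CPM in IZ (median 0.990), with means of 0.505 ± 0.645 CPM (SD, n = 8) and 1.81 ± 1.95 CPM (SD, n = 9). Only 3 IZ libraries exceeded every sham library: replicate 2 at 4.87 CPM, replicate 6 at 4.72 CPM and replicate 7 at 3.25 CPM. Has1 was not counted at all in replicates 8 and 9. The exact two-sided permutation test did not separate the groups (p = 0.111), although edgeR without a filter called the gene (log2 fold change 2.07 ± 0.77, SE, adjusted p = 0.0282), so the call depended on the test. The summed level of 5 mesothelial markers (Msln, Upk3b, Wt1, Upk1b and Lrrn4) moved with Has1 in some libraries. It was 122 CPM in IZ replicate 2 and 69.0 CPM in IZ replicate 6, 10.5 to 29.8 CPM in the other IZ libraries and 7.81 to 19.7 CPM in sham. In IZ replicate 7 the sum was 16.3 CPM, within the sham range. Of the 5 markers only Msln and Wt1 were tested, and Msln was higher in IZ, but did not pass the filter without IZ replicate 1. The part of the mesothelial RNA in the level of Has1 was not tested. The third synthase gene, Has3, was counted 0 to 5 times per library in both groups and did not pass the filter either. Its means were 1.497 ± 0.798 CPM in sham libraries (SD, n = 8) and 0.519 ± 0.576 CPM in IZ libraries (SD, n = 9). Without a filter it was called in the opposite direction to Has1 and Has2, at a log2 fold change of -1.51 ± 0.61 (SE, edgeR quasi-likelihood test, adjusted p = 0.0460).

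**Figure D2:**
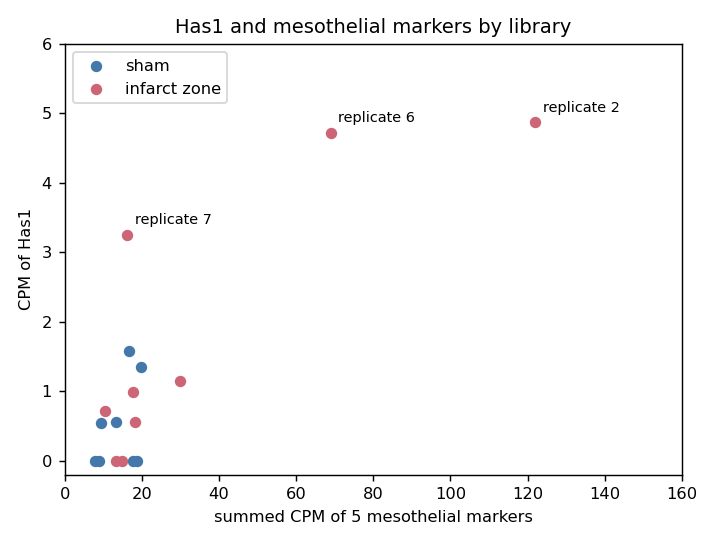
Level of Has1 in CPM (vertical axis) against the summed level of 5 mesothelial markers in CPM (horizontal axis), with 1 point per library. IZ replicates 2 and 6 were high on both axes, IZ replicate 7 on that of Has1 alone, and the remaining libraries lay at or below 1.58 CPM of Has1.

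Of the genes for versican-cutting proteases, Adamts4 rose from the floor, Adamts9 rose slightly, and Adamts1 and Adamts5 did not pass the test. Adamts4 (ENSMUSG00000006403, chr1:171250421-171260637, plus strand), an aggrecanase known from inflamed cartilage, had 0 to 3 counts per sham library and 3 to 62 per IZ library. IZ levels ran from 1.55 to 15.2 CPM (median 9.63, mean 8.69 ± 4.696, SD, n = 9), and 8 of 9 libraries were above every sham library, where the highest value was 2.38 CPM. IZ replicate 8, with 3 counts, was the exception. Against the sham floor Adamts4 was at least 4.86-fold higher, a ratio without a test of its own. For IZ against sham counts the edgeR quasi-likelihood test gave an adjusted p = 1.38e-06.

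Adamts9 (ENSMUSG00000030022, chr6:92772699-92943492, minus strand) was measured at 4.46 to 15.6 CPM in sham (median 10.4) and 7.36 to 23.7 CPM in IZ (median 15.8). The groups overlapped, 5 of 9 IZ libraries being above every sham library. With means of 10.2 ± 4.34 CPM (SD, n = 8) and 15.3 ± 5.32 CPM (SD, n = 9) the log2 fold change was 0.61 ± 0.25 (SE, 95% interval 0.08 to 1.15; edgeR quasi-likelihood test, adjusted p = 0.0346). The call was lost without sham replicate 4, 6, 7 or 8 and without IZ replicate 2, 3 or 8 (log2 fold change 0.49 to 0.60, adjusted p 0.05002 to 0.0842), and after thinning all libraries to the smallest total.

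Adamts1 (ENSMUSG00000022893, chr16:85793827-85803113) and Adamts5 (ENSMUSG00000022894, chr16:85856173-85901828) are neighbours on the minus strand of chromosome 16, 53059 bases apart. Adamts1 ranged from 13.5 to 27.4 CPM in sham (median 21.2) and from 16.0 to 34.5 CPM in IZ (median 26.9), with 4 of 9 IZ libraries above every sham library. Its means were 21.0 ± 5.33 CPM (SD, n = 8) and 26.2 ± 5.72 CPM (SD, n = 9). The log2 fold change of 0.33 ± 0.17 (SE, 95% interval -0.02 to 0.68) did not pass the edgeR quasi-likelihood test (adjusted p = 0.0802), but did so without sham replicate 1 (0.39, adjusted p = 0.0494), without IZ replicate 8 (0.41, adjusted p = 0.0251) or without IZ replicate 9 (0.39, adjusted p = 0.0496). With library totals in place of TMM, Adamts1 was called at 1.42 (edgeR quasi-likelihood test, adjusted p = 1.60e-07), where the median of all tested genes was 1.14. Over all alternatives its adjusted p went up to 0.203. Adamts5, which encodes the main aggrecanase of mouse cartilage, was at 27.2 to 48.2 CPM in sham (median 40.4) and 23.7 to 47.2 CPM in IZ (median 43.0). No IZ library exceeded the highest sham library. Means were 38.7 ± 7.10 CPM (SD, n = 8) and 38.2 ± 8.86 CPM (SD, n = 9), and the log2 fold change was -0.01 ± 0.15 (SE, 95% interval -0.33 to 0.31; edgeR quasi-likelihood test, adjusted p = 0.970).

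Adamts2 (ENSMUSG00000036545, chr11:50602084-50807573, plus strand), the procollagen N-proteinase, had 45 to 83 counts per sham library and 416 to 1816 per IZ library. Its level was 24.3 to 47.5 CPM in sham (median 34.4) and 186 to 346 CPM in IZ (median 228), so that the lowest IZ library was far above the highest sham library. Means were 34.5 ± 6.80 CPM (SD, n = 8) and 249.1 ± 52.7 CPM (SD, n = 9). The log2 fold change of 2.85 ± 0.15 (SE, 95% interval 2.53 to 3.18; edgeR quasi-likelihood test, adjusted p = 5.62e-13) was exceeded by 500 of the 12301 tested genes. IZ replicate 1 lay within the range of the other IZ libraries for Adamts2, at 225 CPM, in contrast to its low values of Vcan and Cd44.

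**Figure D3:**
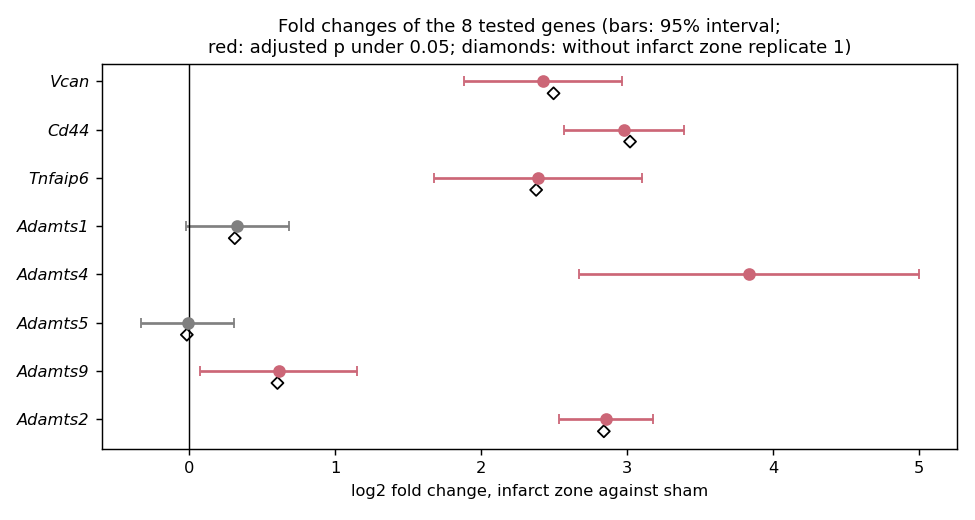
Log2 fold changes of the 8 tested genes (horizontal axis, IZ against sham) with 95% intervals as bars. Red points passed an adjusted p under 0.05, and diamonds give the value without IZ replicate 1. Intervals of Adamts1 and Adamts5 include 0, and the fitted value of Adamts4 is uncertain in size, because its sham libraries are at the floor.

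The proteases were also set in relation to Vcan within each library, a ratio that library scaling affects only through the prior count added to each count. Relative to Vcan, the genes of 3 versican-cutting proteases were lower in IZ, although none of the 3 was called lower by itself. Their log2 fold changes were -0.01 (Adamts5), 0.33 (Adamts1) and 0.61 (Adamts9), beside 2.43 for Vcan. The lower ratios therefore restate mainly the rise of Vcan and are no separate evidence of a fall of the proteases. The ratio was compared between groups only, as the reads of different genes are not comparable in level. Adamts5 to Vcan had a mean log2 ratio of 1.80 ± 0.88 in sham (SD, n = 8) and -0.73 ± 0.49 in IZ (SD, n = 9), a 5.80-fold lower ratio. It was below every sham library in 9 of 9 IZ libraries (exact two-sided permutation test over 24310 splits, p = 4.11e-05, the smallest possible, adjusted p = 1.23e-04). Adamts1 to Vcan was 0.92 ± 0.96 in sham (SD, n = 8) and -1.26 ± 0.53 in IZ (SD, n = 9), which is 4.53-fold lower, again without overlap (exact permutation test, p = 8.23e-05, adjusted p = 1.23e-04). Adamts9 to Vcan fell by 1.89 on the log2 scale, from -0.19 ± 1.06 (SD, n = 8) to -2.07 ± 0.64 (SD, n = 9), a 3.70-fold lower ratio with 8 of 9 IZ libraries below every sham library (exact permutation test, p = 4.11e-04, adjusted p = 4.11e-04). IZ replicate 1 had the highest of the IZ ratios for all 3 proteases. Without it the differences were -2.33, -2.67 and -2.04 for Adamts1, Adamts5 and Adamts9. For Adamts4 to Vcan the groups overlapped, at -3.83 ± 1.23 in sham (SD, n = 8) and -3.04 ± 1.22 in IZ (SD, n = 9), and no test was made because Adamts4 was at the floor in sham. For the same reason, the log2 ratio of Has1 to Has2 is given without a test, at -0.30 ± 1.23 (SD, n = 8) and -1.14 ± 1.91 (SD, n = 9).

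**Figure D4:**
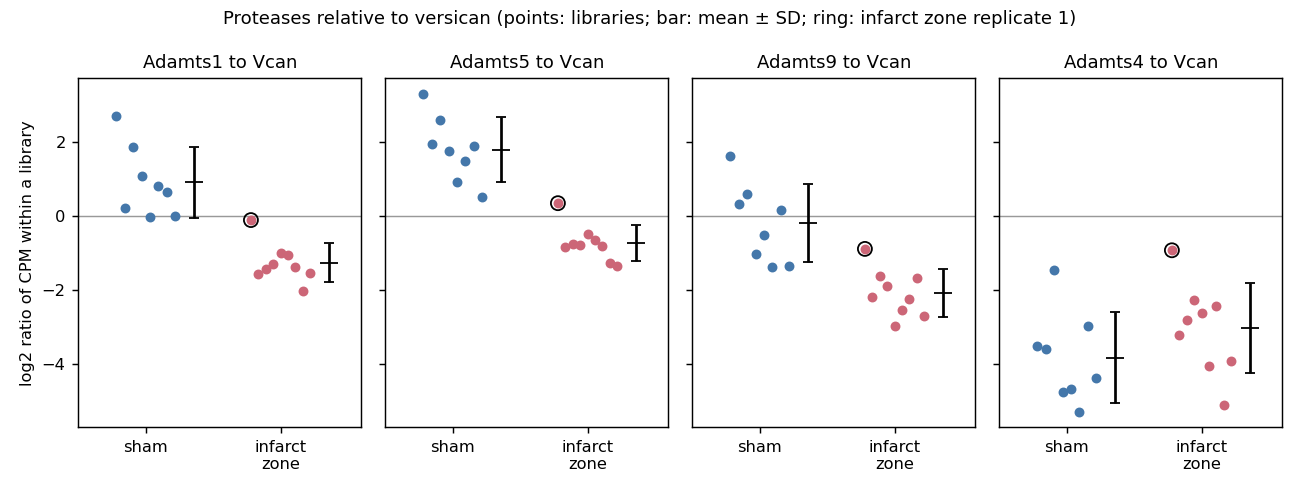
Log2 ratio of each protease to Vcan within a library (vertical axis) in sham and IZ libraries (horizontal axis). Points are libraries, cross bars with whiskers are the mean ± SD (8 sham and 9 IZ libraries) and the ring marks IZ replicate 1. Ratios of Adamts1 and Adamts5 did not overlap between the groups, and those of Adamts4 did.

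Whether the genes varied together with Vcan among infarcts was examined within the 9 IZ libraries. None of 9 relations passed after adjustment. Cd44 had the highest Pearson coefficient (r = 0.82, exact permutation p = 0.0251, adjusted p = 0.226; Spearman rho = 0.45, exact permutation p = 0.230, adjusted p = 0.414), and r was 0.13 without IZ replicates 1 and 7, the libraries farthest from the median of Vcan. It was 0.302 without replicate 1 alone and 0.796 without replicate 7 alone (0.302 to 0.884 with each library left out), so the value of Cd44 rests on replicate 1. Adamts5 had the highest rank coefficient (rho = 0.73, exact permutation p = 0.0311, adjusted p = 0.280; r = 0.40, exact permutation p = 0.283, adjusted p = 0.805). For the other 7 genes r lay between -0.20 and 0.36 and rho between -0.10 and 0.61, with adjusted p values of the exact permutation test of 0.395 or more. Among 9350 genes at a mean level of 10 CPM or more, members left out, those most like Vcan over all 17 libraries after subtraction of the group means were Alg5 (Pearson r = 0.83), Acp5 (0.83), Copb2 (0.82), Selenof (0.79) and Gde1 (0.79). The 5 were picked as the highest of 9350 coefficients, and the ranking was not repeated without IZ replicate 1. Of these 5, the fitted log2 fold change was largest for Acp5, the tartrate-resistant acid phosphatase of macrophages and osteoclasts (5.06). Its mean was 1.13 ± 1.35 CPM (SD) in sham and 37.0 ± 11.9 CPM (SD) in IZ. The sham mean was below the mean sham floor of 1.79 CPM, so this fold change is uncertain in size. Acp5 reached the mean level of 10 CPM only through the IZ libraries, and the sham part of its coefficient rests on levels near the floor. The log2 fold change of Gde1 did not pass the test (0.11, edgeR quasi-likelihood test, adjusted p = 0.501).

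The wider pathway was read from lists of genes by role. Of 19 further genes of hyaluronan turnover and binding 11 were tested, of which 8 were higher and 1 lower in IZ, with a median log2 fold change of 1.83 (over all tested genes, 36.3% were higher, 33.1% lower, and the median was 0.05). Cemip, Hmmr, Layn and Ptx3 reached the minimum of the filter in 0 sham libraries and entered the test through the IZ libraries, so the counts and the median are given as a description. The same holds in the lists below for Acan, Adamts6, Adamtsl3 and Chst11. Without IZ replicate 1, 6 were higher and 1 lower of 10 tested. Cemip, which encodes a protein required for hyaluronan breakdown, was highest, with a sham mean of 1.33 ± 1.05 CPM (SD, n = 8) and an IZ mean of 55.3 ± 18.1 CPM (SD, n = 9). Its log2 fold change was 5.38 ± 0.32 (SE, edgeR quasi-likelihood test, adjusted p = 2.82e-12), and 9 of 9 IZ libraries were above every sham library. The gene lower in IZ was Lyve1, a hyaluronan receptor of lymphatic vessels and resident macrophages, at 17.001 ± 3.13 CPM (SD, n = 8) and 6.27 ± 4.38 CPM (SD, n = 9), with 8 of 9 IZ libraries below every sham library. Its log2 fold change was -1.30 ± 0.30 (SE, edgeR quasi-likelihood test, adjusted p = 5.62e-04), and -0.23 with library totals in place of TMM (adjusted p = 0.490). Ugdh, which makes the UDP-glucuronic acid used for both hyaluronan and chondroitin sulfate, was higher by 1.83 ± 0.14 (SE), as were the receptor genes Stab1, Hmmr and Layn, Cemip2, and the TSG-6 partner Ptx3. The eighth gene, Itih5, was called at 0.54 ± 0.24 (SE, adjusted p = 0.0486), and in 9 of 24 alternatives. The hyaluronidase genes Hyal1 (0.40) and Hyal2 (0.09) did not pass the test.

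Chondroitin sulfate synthesis comprised 16 genes, of which 15 were in the table and 13 tested. Of these, 10 were higher and 0 lower in IZ, also without IZ replicate 1, beside 36.3% higher and 33.1% lower over all tested genes. Their median log2 fold change was 1.53. Xylt1, Csgalnact1 and B3galt6 reached the minimum of the filter in 1 sham library each and in 9 IZ libraries, and Chst12 in 3 and 9. These genes, like Chst11, passed it mainly through the IZ libraries, so the counts and the median are given as a description. The called genes ran from Xylt1 (2.37 ± 0.34, SE), the xylosyltransferase that starts the chain, to B3galt6 (0.65 ± 0.22, SE), which builds its linker. B3galt6 lost the call in 1 of 24 alternatives. Genes of the polymerising enzymes, Chsy1, Chpf and Chpf2, were among the higher ones, whereas Csgalnact2 (0.23), B3gat3 (-0.15) and Chst15 (-0.43) did not pass the test. Of the matrix partners of versican, 3 of 4 tested genes were higher, beside the same 36.3% of all tested genes, Fbln1 being the exception. Tnc, which encodes tenascin-C, rose from 9.29 ± 5.52 CPM (SD, n = 8) to 200 ± 61.7 CPM (SD, n = 9), a log2 fold change of 4.45 ± 0.31 (SE, edgeR quasi-likelihood test, adjusted p = 2.79e-11), and Fbln2, which encodes fibulin-2, was the lowest of the called partners at 2.57 ± 0.17 (SE).

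Among 7 other lecticans and link proteins, only Acan was tested. Acan encodes aggrecan, the cartilage relative of versican. It had 0 to 3 counts per sham library and 11 to 69 per IZ library, and its IZ mean was at least 5.26-fold above the sham floor. For IZ against sham counts the edgeR quasi-likelihood test gave an adjusted p = 3.37e-07. Link protein genes were at or near 0, with Hapln1 counted once in sham and 0 times in IZ. Hapln4 had 0 counts in every sham library and 0 to 4 per IZ library. Without a filter Hapln4 was called higher (log2 fold change 3.17 ± 1.12, SE, edgeR quasi-likelihood test, adjusted p = 0.0225).

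Of 14 other ADAMTS genes listed, 4 were tested, 2 being higher and 1 lower (1 and 1 of 3 without IZ replicate 1), beside 36.3% higher and 33.1% lower over all tested genes. Adamts10, which encodes a fibrillin-binding protease, was higher by 1.80 ± 0.19 (SE, edgeR quasi-likelihood test, adjusted p = 1.86e-08). Adamts7 was lower by -1.44 ± 0.23 (SE, adjusted p = 6.62e-06), at 17.01 ± 6.04 CPM (SD, n = 8) in sham and 5.92 ± 2.08 CPM (SD, n = 9) in IZ. The 4 tested genes of ADAMTS-like proteins, which lack the protease domain, were split into 2 higher and 2 lower, from Adamtsl3 (3.26 ± 0.28, SE) to Adamtsl5 (-1.25 ± 0.20, SE). With library totals in place of TMM, the lower ADAMTS and ADAMTS-like genes kept their direction but did not pass the test (Adamts7 -0.36, Adamtsl4 -0.13, Adamtsl5 -0.22, adjusted p 0.148 to 0.443). Of the genes that limit the proteases, Timp3, the main tissue inhibitor of ADAMTS4 and ADAMTS5, was higher by 0.46 ± 0.15 (SE, edgeR quasi-likelihood test, adjusted p = 0.0101), and Lrp1, a receptor that clears them, by 1.85 ± 0.17 (SE, adjusted p = 1.08e-09).

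**Figure D5:**
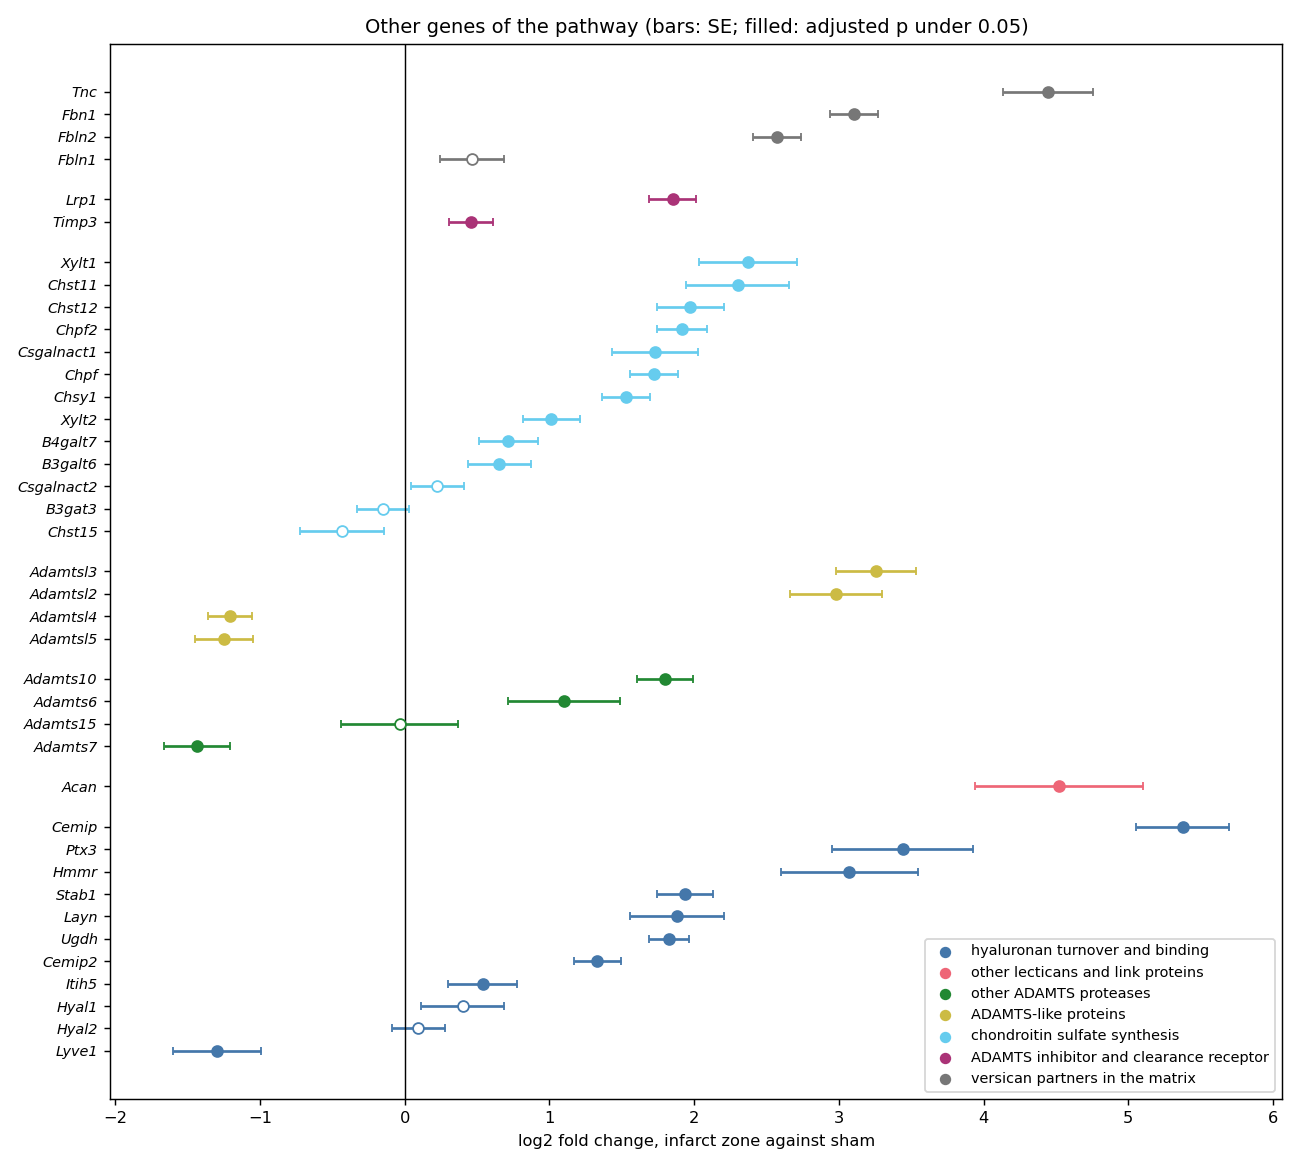
Log2 fold changes of the tested pathway genes (horizontal axis, IZ against sham), grouped by role and coloured by list, with bars for the SE. Filled points passed an adjusted p under 0.05. Cemip, Acan (fitted from sham libraries at the floor) and Tnc lay farthest to the right, and Lyve1, Adamts7, Adamtsl4 and Adamtsl5 on the left.

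Promoter sequences of RefSeq (GRCm38.p6) were found for 7 of the 10 genes, Has2, Adamts4 and Adamts5 being without an entry. In the 250 bases before each RefSeq start, 5 motifs were searched on both strands. The AP-1 motif TGANTCA was present in 6.75% of 32851 promoters, the TATA box TATAAA in 12.4%, the TEAD motif GGAATG in 12.6%, the cyclic AMP response element TGACGTCA in 1.55% and the NF-kB motif GGGNNTTCC in 4.98%. AP-1 and cyclic AMP motifs read the same on both strands and were counted once. Tnfaip6, which was higher in IZ, held an AP-1 motif 142 to 136 bases before its RefSeq start and a TEAD motif on the opposite strand of the gene at 8 to 3 bases. The last 104 of these 250 bases lie inside the Tnfaip6 gene as annotated by GENCODE, and the TEAD motif with them, so that it is not in the stretch shown. For Has1 the last 17 bases lie inside the annotated gene. Adamts1, which did not pass the test, held a TATA box at 32 to 27 bases, and Has1 a cyclic AMP response element at 83 to 76 bases. Vcan, Cd44, Adamts2 and Adamts9 held none of the 5. The stretches upstream of the annotated gene are shown for the 3 genes with such a motif and for Vcan, written from 5' to 3' on the strand of the gene, with the motif in capitals. They lie at chr13:89742513-89742662 (Vcan, minus strand), chr2:52037863-52038008 (Tnfaip6, plus strand), chr16:85803114-85803263 (Adamts1, minus strand) and chr17:17855206-17855355 (Has1, minus strand). A match is a description of the letters and not evidence of binding.
Vcan: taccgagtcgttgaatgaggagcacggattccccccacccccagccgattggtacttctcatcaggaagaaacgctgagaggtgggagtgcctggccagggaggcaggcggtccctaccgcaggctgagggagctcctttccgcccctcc
Tnfaip6: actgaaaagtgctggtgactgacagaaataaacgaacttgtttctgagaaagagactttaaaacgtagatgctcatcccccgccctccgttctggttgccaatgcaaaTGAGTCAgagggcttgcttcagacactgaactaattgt
Adamts1: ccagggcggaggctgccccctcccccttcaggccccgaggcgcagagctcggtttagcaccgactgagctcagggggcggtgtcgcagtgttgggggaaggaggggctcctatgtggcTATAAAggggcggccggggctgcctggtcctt
Has1: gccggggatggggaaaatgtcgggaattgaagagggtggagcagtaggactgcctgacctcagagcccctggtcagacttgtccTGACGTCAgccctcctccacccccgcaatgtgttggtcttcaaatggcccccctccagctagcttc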

How the data were processed

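Total RNA was treated with DNase and 3' end libraries with molecular identifiers were prepared and sequenced. The deposited values are raw counts per gene, without normalization. According to the methods and the submitters' processing notes, the authors trimmed the reads with Cutadapt, mapped them to mm10 (Bowtie2 is named) and counted them with HTSeq. The annotation release, the strand setting and the treatment of reads with several locations are not given in the sources used here.

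Of 31647 features, 35 were merged gene groups, which were kept in the fit without a name, and 31554 identifiers matched the GENCODE annotation of GRCm38. All 17 columns were used, 8 sham and 9 IZ libraries numbered as in the labels, and no library was a copy of another (chi-square per degree of freedom of at least 2.41 in every pair). Each library is described as a separate mouse, and the labels name no batch.

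Genes passing filterByExpr (minimum count 10) were scaled by TMM and tested without covariates by the two-sided quasi-likelihood test of edgeR 4.0.16 in R 4.3.3, with Benjamini-Hochberg adjustment over 12301 genes and a threshold of 0.05. Standard errors were derived from the F statistic, and 95% intervals from the t distribution. Genes with 3 counts or fewer in every sham library were treated as at the floor, and their fold is a lower bound against the mean of that floor in sham. Floors cover counting error only. Log2 CPM used a prior count of 1. Ratios were tested by exact permutation of group labels, adjusted over the 3 ratios with enough counts of 5 planned. Relations were tested by exact permutation of 362880 pairings, adjusted over 9. Python 3.11.15, NumPy 2.4.6, pandas 2.3.3, SciPy 1.17.1, Matplotlib 3.10.9 and BLAST 2.17.0 were used.

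The 10 genes and the pathway and marker lists were chosen with earlier results of these data known. Named were all 10 genes, the called genes with the highest and the lowest log2 fold change of each list, and the 5 genes most like Vcan. Other list genes named beside them were chosen after their values were seen. Of the chondroitin sulfate list, 1 gene was not analysed here. The values of 1 gene beside a member are not reported here. For the 10 genes, no near-identical 3' end was found elsewhere (at least 100 bases at 95% identity within the last 500 bases).

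As alternatives, libraries were scaled by DESeq2 size factors or by their totals, genes were tested by DESeq2 (version 1.42.0, Wald test), low genes were kept or only those with a mean of 50 counts, mitochondrially encoded features were dropped, counts were thinned to 1237675 per library, the replicate number was added as a block, the prior count was set to 5, and each library was left out in turn. The test of Has1 and Has2 by exact permutation and the list counts without IZ replicate 1 were added after seeing the data. Tested on simulated data for this comparison in which 200 genes were changed by 1 on the log2 scale, 12129 genes passed the filter, 194 of the changed genes among them. The procedure called 161 of these (83.0%), and 5.85% of its calls were false. The changed genes were few and balanced in direction, whereas 69.5% of tested genes were called in the data. These rates therefore need not hold for the comparison itself.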

Additional observations from a re-analysis of the deposited data

Results flagged for a closer look

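In 5 of 32 groups of values, the highest or lowest library was farther from the others than Dixon's 95% critical value allows. Chance alone gives about 1 in 20. For Vcan it was IZ replicate 1, at 25.7 CPM, with the next IZ library at 59.2 CPM and the highest at 83.5 CPM. The same library had the highest log2 ratio of Adamts5 to Vcan in IZ, 0.354, with the next at -0.49, and a mitochondrial share of 19.5%, with the next at 6.78%. For Tnfaip6 it was sham replicate 6, at 5.88 CPM against 3.08 CPM in the next sham library. For Adamts4 it was sham replicate 3, at 2.38 CPM against 0.770 CPM in the next, which is a value of 3 counts.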

How the results depend on the processing

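Of 187 log2 fold changes of the tested genes under the alternatives, 165 kept their direction and their side of the threshold. Vcan, Cd44, Tnfaip6, Adamts2 and Adamts4 kept both in every alternative that could fit them, with log2 fold changes of 2.28 to 3.54 for Vcan and 2.78 to 3.94 for Adamts2. Adamts4 was not tested with a minimum mean of 50 counts, after thinning, with the replicate block or without IZ replicates 1 to 7 or 9, since it did not pass the filter. The number of the 10 genes called higher was 6, and 3 with a minimum mean of 50 counts, where Tnfaip6, Adamts4 and Adamts9 were not tested, 4 after thinning, 8 without a filter or with total counts alone, 4 to 7 with each library left out. None was called lower in any of these. Over all genes, 4470 calls were higher and 4074 lower, with total counts alone 9203 and 1524 (85.8% of calls higher in place of 52.3%), with a minimum mean of 50 counts 2747 and 2492 of the 6734 genes then tested, and with each library left out 4155 to 4523 and 3807 to 4235.

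Adamts5 changed sign without passing the test with no filter (0.0509), a minimum mean of 50 counts (0.0146) and the replicate block (0.0677), ran from -0.0779 to 0.0805 with each library left out, and was called at 1.09 with total counts alone. The ratios kept direction and call, with differences of -2.04, -2.37 and -1.80 for Adamts1, Adamts5 and Adamts9 at a prior count of 5, and of -2.33 to -1.92, -2.72 to -2.32 and -2.06 to -1.63 with each library left out. Among the relations to Vcan within IZ, total count CPM gave r = 0.907 for Cd44 and 0.676 for Adamts5 (adjusted p = 0.0499 for both, exact permutation) and changed the sign for Tnfaip6 to 0.221. Without the 2 libraries farthest from the median, r was 0.0424 for Adamts4. With each library left out, r ran from -0.0275 to 0.41 for Has2, -0.0921 to 0.24 for Adamts2, -0.37 to 0.28 for Adamts4 and -0.10 to 0.0321 for Tnfaip6. The causes of these changes were not tested, apart from the genes lost to a filter.

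With the replicate number as a block, which leaves out IZ replicate 9, 7883 of 12033 genes were called and 5 of the 10 genes were higher. The numbers do not pair the samples, since deviations from the group means correlated by -0.216 to 0.128 between libraries of the same number.

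Depth limits Has1, Has2 and Adamts4, for which 3 counts correspond to more than the sham level.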

Other observations

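Some other ADAMTS genes were too low for the filter. Adamts16 had 0 to 1 counts per sham library and 3 to 57 per IZ library (0.208 ± 0.286 CPM, SD, n = 8, and 4.98 ± 2.76 CPM, SD, n = 9). Adamts14, which like Adamts2 encodes a procollagen N-proteinase, had 0 to 3 and 5 to 41 counts (1.33 ± 0.647 CPM, SD, n = 8, and 4.04 ± 1.26 CPM, SD, n = 9). In both genes 9 of 9 IZ libraries lay above every sham library, which held for 16.6% of tested genes and was not counted among genes below the filter. Both genes were chosen after their values were seen. Adamts19 went the other way, with 0 to 3 counts per sham library and 0 to 2 per IZ library. Without a filter Adamts14 and Adamts16 were called (edgeR quasi-likelihood test, adjusted p = 5.17e-04 for Adamts14 and 8.00e-08 for Adamts16), as in the other alternatives in which they passed the filter. Adamts19 was called lower without a filter (log2 fold change -2.73 ± 0.80, SE, edgeR quasi-likelihood test, adjusted p = 0.00522). In that setting Adamts12, Adamts17 and Adamts20 were also called higher, and Adamts3, Adamts8, Adamts13 and Adamts18 were not called.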
